A study of Rattus norvegicus with 25 samples.

Results

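The microRNAs described here are those made from the Mir451a and Mir144 hairpins, which are read out in sperm libraries as a sign of red-cell RNA. Members were chosen by name, as every listed mature miRNA beginning with rno-miR-451-, rno-miR-144- or rno-miR-486. The rule found 4 of the 562 miRNAs in the count matrix, rno-miR-451-5p, rno-miR-451-3p, rno-miR-144-5p and rno-miR-144-3p, and 3 of these passed the filter on low counts with 314 other miRNAs. The name rno-miR-486 matched no entry of the matrix used and was not analysed here.

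Small RNA was sequenced from cauda epididymal sperm of 25 Sprague-Dawley male rats that had lever-pressed for intravenous infusions in daily sessions. F0_SAL (saline, n = 7) and F0_MOR (morphine, n = 7) were collected when self-administration ended, and F0_ABS-SAL (saline, n = 5) and F0_ABS-MOR (morphine, n = 6) after 90 days of abstinence, so that the abstinent males were also older at collection. Sperm was purified by double swim-up, and the pellets were washed in hypotonic saline until no blood could be seen, a step that lyses red cells. Libraries are named by the letter of their column; the columns carry REG or TO, which no label expands, and the number of columns of each kind tied them to collection time.

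The locus of miR-144 and miR-451 is a textbook erythroid gene pair, transcribed as 1 primary RNA under the control of the transcription factor GATA1 and strongly expressed as red cells mature. miR-451 is made in an unusual way. Its hairpin is too short for Dicer and is cut by Argonaute 2, so that the 5p arm becomes the guide and little 3p arm is made, whereas miR-144 is processed by Dicer into a 5p and a 3p arm. Because mature red cells keep these miRNAs and few other cell types hold much of them, miR-451 is used in plasma studies as a sign of lysed red cells, often relative to miR-23a.

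The mature sequences show that the 4 members are different molecules that counting can tell apart. They are RefSeq sequences of assembly GRCr8, written 5′ to 3′, with the seed (bases 2 to 8) in capitals.
rno-miR-451-5p: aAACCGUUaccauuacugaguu
rno-miR-451-3p: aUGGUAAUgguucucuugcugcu
rno-miR-144-5p: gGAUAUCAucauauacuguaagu
rno-miR-144-3p: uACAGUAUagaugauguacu
No 2 members share a seed, and of the 562 names in the matrix, 520 had a RefSeq sequence and none of these had the seed of a member. The nearest relatives were the miR-101 3p arms, which share bases 2 to 7 with rno-miR-144-3p and differ from it further along.
rno-miR-101a-3p: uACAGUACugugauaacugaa
rno-miR-101b-3p: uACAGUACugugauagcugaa

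Both hairpins lie on the plus strand of chromosome 10 in GRCr8, Mir144 at chr10:63459397-63459479 and Mir451a at chr10:63459569-63459640, 89 bases apart. No annotated gene of the RefSeq table overlaps them, and the genes on either side are Flot2 and Eral1. The authors counted reads on another assembly, Rnor_6.0, and no coordinate of that assembly is given here. The Mir144 arms are separated by 14 bases and the Mir451a arms by 5.

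The most abundant member was rno-miR-451-5p, the guide strand of miR-451. It had 45153 reads over the 25 libraries, 0.0937% of all miRNA reads, and ranked 66 of 562 miRNAs by total. The arms of miR-144 were about equal to each other, with 4950 reads for rno-miR-144-3p and 4818 for rno-miR-144-5p, ranks 143 and 145. These 3 miRNAs were above 0 in 25 of 25 libraries. rno-miR-451-3p, the strand opposite the guide, had 82 reads in all and 0 to 13 in a library, so that 551 reads of the 5p arm were counted for each read of the 3p arm. It was listed at 0 in 7 libraries, and since no count in the matrix is 1 and the smallest above 0 is 2, a 0 can stand for a single read. By group its reads numbered 23 (F0_SAL), 27 (F0_MOR), 13 (F0_ABS-SAL) and 19 (F0_ABS-MOR), and it was not tested.

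Depth ran from 1032386 to 3203211 miRNA reads a library, with group medians of 1701012 (F0_SAL), 1428308 (F0_MOR), 2334377 (F0_ABS-SAL) and 2134169 (F0_ABS-MOR). Sperm marked the libraries as labelled. The 12 miRNAs of a sperm and testis list, led by the miR-34b/c family, summed to 198662 to 770063 CPM (counts per 1000000 reads after the scaling given next), and rno-miR-34c-5p alone held 39.0% of all reads. The scaling factors of the trimmed mean of M-values (TMM) moved with collection time, with medians of 0.928 and 0.967 in F0_SAL and F0_MOR and 1.14 and 1.13 in F0_ABS-SAL and F0_ABS-MOR, and their part in the results below was not tested beyond the other scalings given. The preparation and sequencing batches are not given in the sources used here, so that batch, age and collection time cannot be told apart.

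Levels are given as TMM-scaled CPM. Within F0_SAL, rno-miR-451-5p was lowest at 728 CPM and had a median of 809 CPM and a highest value of 2409 CPM. In F0_MOR the same miRNA ran from 753 CPM through a median of 1173 CPM to 2044 CPM. One F0_SAL library, V, stood at the top of all 25, above every F0_MOR library, while the other 6 F0_SAL libraries lay at or below 1051 CPM. In F0_ABS-SAL the 5 libraries E, K, L, R and Y had 765, 930, 527, 847 and 971 CPM of rno-miR-451-5p. In F0_ABS-MOR it was lowest at 259 CPM, with a median of 699 CPM and a highest value of 1105 CPM. The nonabstinent and abstinent groups overlapped, and the lowest library, Q, was 9.31-fold below the highest, V.

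rno-miR-144-5p ran in F0_SAL from 81.2 to 181 CPM with a median of 109 CPM. In F0_MOR its lowest value was 77.5 CPM, its median 154 CPM and its highest 186 CPM. It had 88.3, 75.0, 55.2, 65.2 and 129 CPM in the F0_ABS-SAL libraries E, K, L, R and Y. In F0_ABS-MOR it ran from 13.9 to 110 CPM with a median of 65.2 CPM. In F0_ABS-MOR, D alone reached into the range of F0_MOR, and the other 5 libraries had less than its lowest. Q was the lowest of all libraries again, 13.4-fold below N, the highest.

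rno-miR-144-3p varied least, with a 5.05-fold span from Q to C. Its lowest, median and highest values were 90.8, 108 and 176 CPM in F0_SAL and 58.7, 117 and 171 CPM in F0_MOR. In F0_ABS-SAL, libraries E, K, L, R and Y had 126, 96.8, 72.6, 71.7 and 156 CPM. In F0_ABS-MOR the values were 34.8, 76.0 and 110 CPM, again lowest, median and highest. Each pair of groups overlapped.

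**Figure D1:**
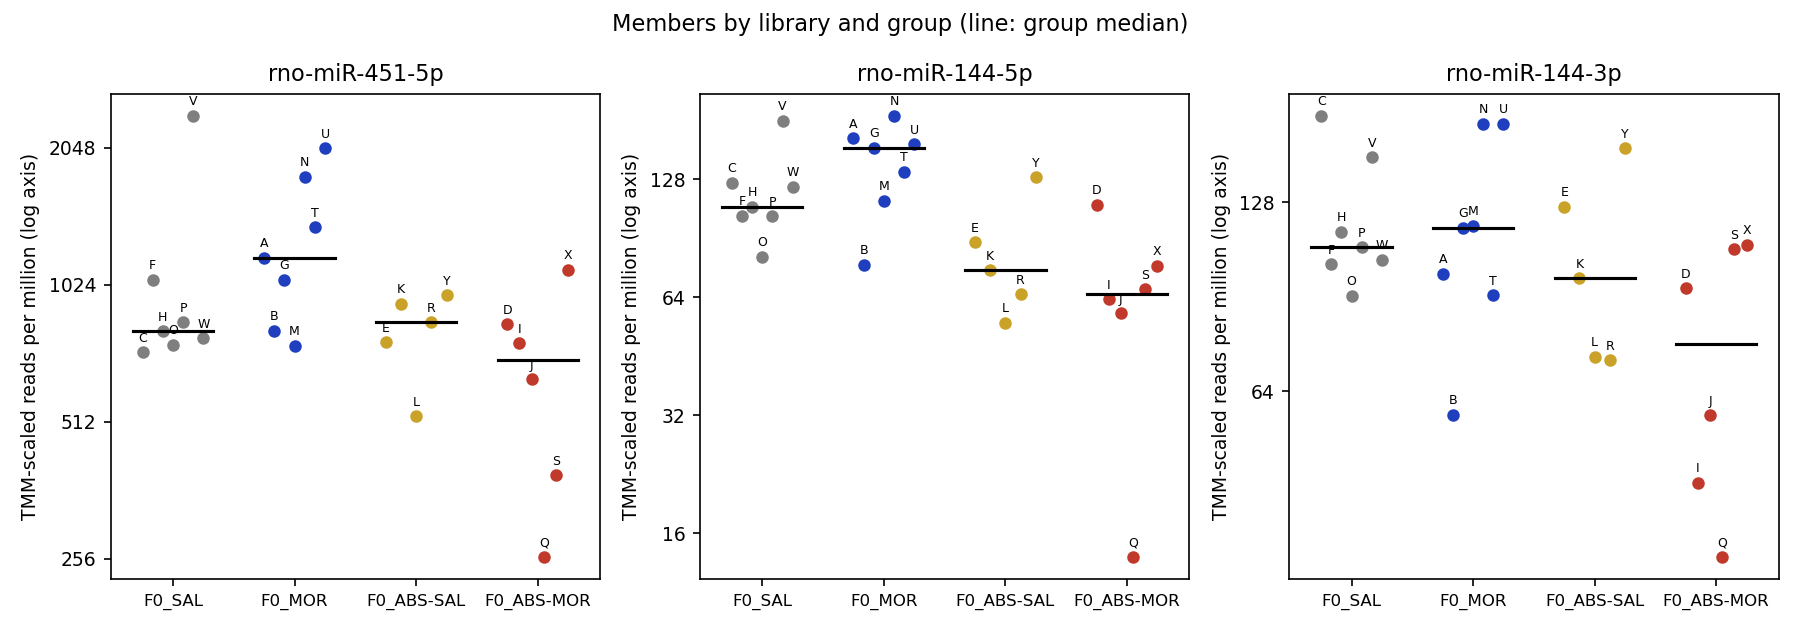
TMM-scaled CPM (log axis) of the 3 tested members in each of the 25 libraries, by group, with library letters and a line at the group median. Library Q of F0_ABS-MOR is the lowest in each panel, and library V of F0_SAL is the highest for rno-miR-451-5p at 2409 CPM.

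In library Q the low values rested on 520 reads of rno-miR-451-5p, 28 of rno-miR-144-5p and 70 of rno-miR-144-3p among 1590063 miRNA reads. In CPM before TMM scaling, these were 327 (95% Clopper-Pearson interval 299.5 to 356), 17.6 (11.7 to 25.5) and 44.0 (34.3 to 55.6), intervals that cover counting error only.

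The main contrast was seen between the morphine groups. All 3 tested members were lower in F0_ABS-MOR than in F0_MOR at the call used throughout, a Benjamini-Hochberg adjusted p under 0.1 over all 317 miRNAs tested and a log2 fold change beyond 0.58 either way. Mean levels fell from 1282 ± 482 CPM (SD, n = 7) to 665 ± 308 CPM (SD, n = 6) for rno-miR-451-5p and from 141 ± 36.2 to 65.0 ± 31.2 CPM for rno-miR-144-5p. For rno-miR-144-3p they were 118 ± 41.2 and 75.0 ± 32.7 CPM. By edgeR's quasi-likelihood test the log2 fold change was -0.95 (SE 0.31, adjusted p = 0.0308) for rno-miR-451-5p, -1.12 (SE 0.29, adjusted p = 0.0109) for rno-miR-144-5p and -0.65 (SE 0.27, adjusted p = 0.0927) for rno-miR-144-3p. Of all miRNAs tested in this comparison, 10.1% were called lower and 11.0% higher, with a median log2 fold change of 0.00. In each case, 6 of 6 F0_ABS-MOR libraries lay below the mean log2 level of F0_MOR. In such bulk libraries, fewer cells of a type and less RNA per cell cannot be told apart.

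The calls of the 2 more strongly changed members did not rest on Q. Without it, rno-miR-451-5p had a log2 fold change of -0.78 (adjusted p = 0.0829) and rno-miR-144-5p one of -0.90 (adjusted p = 0.0193, both edgeR). rno-miR-144-3p lost its call, at -0.50 (adjusted p = 0.194), as it did with any of 5 other single libraries left out and in 8 of 13 other settings, so that its call was borderline. With libraries scaled to the summed sperm and testis list, an alternative added after the data were seen, only rno-miR-144-5p kept its call (-0.76, adjusted p = 0.0724 by edgeR), while rno-miR-451-5p had -0.48 (adjusted p = 0.289) and rno-miR-144-3p -0.19 (adjusted p = 0.673). That scaling raised the median log2 fold change of all miRNAs to 0.46. Since it moved all miRNAs together, the place of the 3 members below that median was nearly fixed beforehand and is no further result.

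Levels in log2 CPM were also compared by exact permutation, two-sided, in 16 tests over 4 comparisons and 4 measures (the 3 members and the ratio described further on). Their p-values are printed unadjusted. Of the 16, 5 were under 0.05 as printed, and 2 were after Benjamini-Hochberg adjustment over the 16, those of rno-miR-144-5p and of the ratio between F0_ABS-MOR and F0_MOR. The exact permutation tests gave p = 0.0169 for rno-miR-451-5p, p = 0.00233 for rno-miR-144-5p and p = 0.0629 for rno-miR-144-3p between the morphine groups. The smallest p this design allows is 5.83e-04.

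Between the saline groups the same members were on the lower side after abstinence, and none of the 3 was called. The log2 fold change between F0_ABS-SAL and F0_SAL was -0.39 (SE 0.32, adjusted p = 0.351 by edgeR) for rno-miR-451-5p, -0.51 (SE 0.30, adjusted p = 0.185) for rno-miR-144-5p and -0.21 (SE 0.28, adjusted p = 0.588) for rno-miR-144-3p, with 0 of 3 at an unadjusted p under 0.05. The value of rno-miR-451-5p rested on library V, without which it was -0.08 (adjusted p = 0.854 by edgeR), while the other members then had -0.41 and -0.18. Over all miRNAs, 10.7% were called lower and 22.4% higher. Scalings that moved all miRNAs together also moved the sign of these values. With total miRNA counts alone the median log2 fold change of all miRNAs was 0.39, with rno-miR-451-5p at 2.80e-05 and rno-miR-144-3p at 0.14. With the sperm and testis list that median was 0.74, and the 3 members, at 0.36, 0.17 and 0.44, were above 0 and below it. Without library Y, rno-miR-144-5p was called lower (-0.74, adjusted p = 0.0847 by edgeR). The exact permutation test of rno-miR-144-5p gave p = 0.0480, 1 of the 3 tests that the adjustment put above 0.05, and leaving out 1 library moved it above 0.05 for 10 of the 12 libraries.

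No member was called between morphine and saline males at either collection time. Between F0_MOR and F0_SAL the log2 fold changes were 0.28 (SE 0.29, adjusted p = 0.775 by edgeR) for rno-miR-451-5p, 0.26 (SE 0.27, adjusted p = 0.775) for rno-miR-144-5p and -0.04 (SE 0.26, adjusted p = 0.963) for rno-miR-144-3p. Of all miRNAs, 0% were called in this comparison, with 23 at an unadjusted p under 0.05 and none of them a member. The authors, with DESeq2 and the same thresholds, reported rno-miR-150-5p as differing between these groups, which qPCR appeared to repeat. Here that miRNA had a log2 fold change of 0.92 (SE 0.26, adjusted p = 0.311 by edgeR) and was not called. DESeq2 in default settings, run here on the same counts, called 0 of 562 miRNAs between these groups. Voom with sample quality weights called 1 of 317, higher in F0_MOR, which is not identified here. What set these counts apart from the authors' call was not tested. Library V decided 1 of the members' values. Without it, the difference in mean log2 CPM of rno-miR-451-5p went from 0.33 (exact permutation p = 0.298) to 0.55 (exact permutation p = 0.0373), while edgeR's adjusted p without any single library was 0.574 or above and its log2 fold change ran from 0.064 to 0.57. Between F0_ABS-MOR and F0_ABS-SAL the 3 members had log2 fold changes of -0.28 (SE 0.33), -0.35 (SE 0.31) and -0.48 (SE 0.29) in the same order, each with an adjusted p of 1.00 by edgeR. Without library Q they were -0.10, -0.13 and -0.33. Of all miRNAs, 0% were called there, with 4 at an unadjusted p under 0.05.

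The contrast in the morphine groups was not shown to differ from that in the saline groups. The interaction, the morphine effect in nonabstinent minus that in abstinent males, was 0.56 (SE 0.44) for rno-miR-451-5p, 0.61 (SE 0.41) for rno-miR-144-5p and 0.45 (SE 0.39) for rno-miR-144-3p, each with an adjusted p of 0.953 by edgeR, and 0% of all miRNAs were called. Without Q the 3 values were 0.33, 0.34 and 0.25, and without V they were 0.88, 0.72 and 0.49, none of them called. The collection-time and treatment comparisons share their libraries, so their values stand side by side and are not independent.

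**Figure D2:**
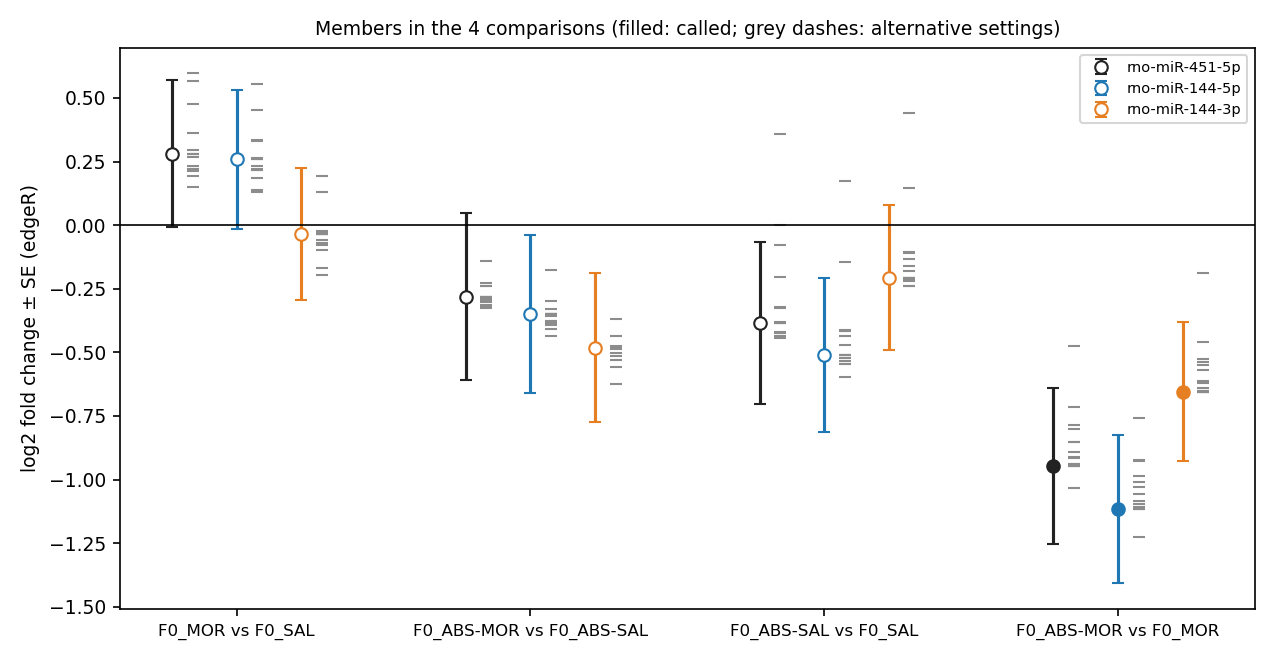
log2 fold change with its standard error from edgeR for the 3 tested members in the 4 comparisons, filled where called, with grey dashes for the other settings with all or nearly all libraries. The filled points are those of F0_ABS-MOR against F0_MOR, at -0.95, -1.12 and -0.65; in F0_ABS-SAL against F0_SAL the dashes fall on both sides of 0.

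rno-miR-451-5p was next set against rno-miR-23a-3p within each library, the ratio used in plasma, which needs no scaling factor. There were 3.34 reads of rno-miR-451-5p for each read of rno-miR-23a-3p at the median of F0_SAL and 3.01 in F0_MOR, against 1.35 in F0_ABS-SAL and 0.995 in F0_ABS-MOR. On the log2 scale the ratio was 1.47 lower in F0_ABS-MOR than in F0_MOR (0.04 ± 0.63, n = 6, against 1.51 ± 0.71, n = 7, SD; two-sided exact permutation p = 0.0035) and 1.36 lower in F0_ABS-SAL than in F0_SAL (0.33 ± 0.77, n = 5, against 1.69 ± 0.78, n = 7, SD; exact permutation p = 0.0126). The reference itself moved. rno-miR-23a-3p was called higher in F0_ABS-SAL than in F0_SAL, with a log2 fold change of 1.04 (SE 0.24, adjusted p = 0.00283 by edgeR), and had 0.45 (SE 0.23, adjusted p = 0.169) between F0_ABS-MOR and F0_MOR. In the saline groups this log2 fold change of the denominator was larger in size than the -0.39 of rno-miR-451-5p, and the p of the ratio there was above 0.05 once adjusted over the 16 tests. Between treatments, exact permutation tests of the ratio gave p = 0.670 for nonabstinent and p = 0.504 for abstinent males.

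Reads of the neighbouring hairpins were compared in the same way. For each read of both miR-144 arms together there were 2.23 to 7.26 reads of rno-miR-451-5p, with a median of 4.49. The 5p to 3p ratio of miR-144 was close to even over the 25 libraries, with a median of 0.949 and a range of 0.40 (Q) to 1.66 (A). More 5p than 3p reads were counted in 5 of 7 F0_MOR, 3 of 7 F0_SAL, 0 of 5 F0_ABS-SAL and 2 of 6 F0_ABS-MOR libraries.

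**Figure D3:**
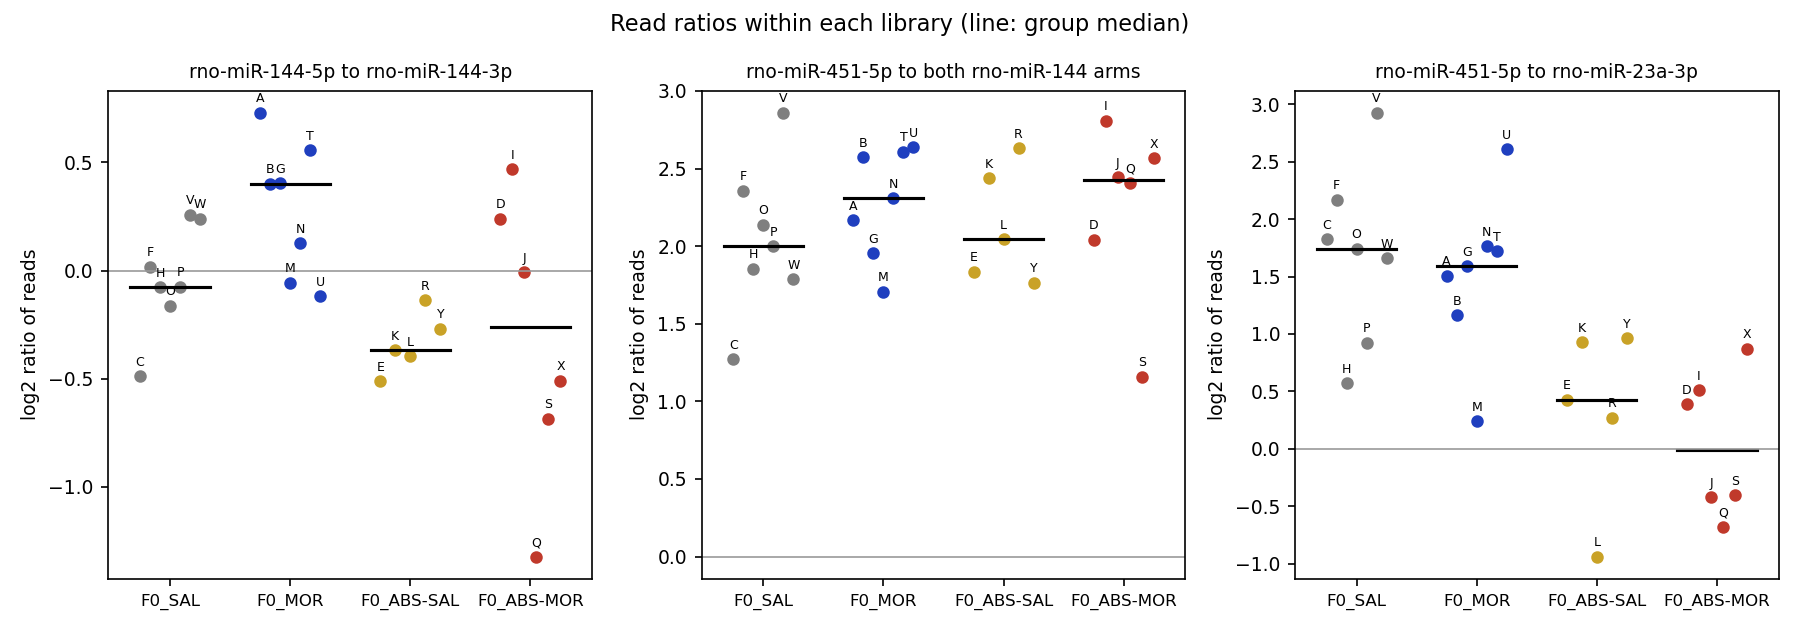
log2 ratio of reads within each library for the miR-144 arms, for rno-miR-451-5p to both miR-144 arms and for rno-miR-451-5p to rno-miR-23a-3p, with a line at the group median. In the right panel the medians of the abstinent groups, 0.43 and -0.01, lie below those of the nonabstinent groups, 1.74 and 1.59; in the left panel the F0_ABS-SAL points lie below 0.

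The members varied together from male to male. Group means were removed first, so the values describe spread within groups over 25 libraries, with p from 100000 permutations within groups. The 2 arms of miR-144 had Pearson's r = 0.77 (permutation p = 2.00e-05, adjusted over the 3 pairs 6.00e-05) and Spearman's rho = 0.77 (permutation p = 4.00e-05, adjusted 1.20e-04), and r was 0.69 without Q and B, the 2 libraries farthest from the median of the group-centred rno-miR-144-5p values. rno-miR-451-5p and rno-miR-144-5p had r = 0.73 (permutation p = 1.70e-04, adjusted 2.55e-04) and rho = 0.65 (permutation p = 7.20e-04, adjusted 0.00108). Without V and Q that r was 0.56 (permutation p = 0.0162).

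The relation of rno-miR-451-5p with the other arm was weaker and rested on V and Q. Here r was 0.52 (permutation p = 0.0188, adjusted 0.0188) and rho 0.38 (permutation p = 0.108, adjusted 0.108), and without V and Q r was 0.36 (permutation p = 0.164). Within F0_SAL, F0_MOR and F0_ABS-MOR taken alone, r was 0.76, 0.73 and 0.81 for rno-miR-451-5p with rno-miR-144-5p, and 0.73, 0.81 and 0.77 for the 2 arms of miR-144. For rno-miR-451-5p with rno-miR-144-3p it was 0.35, 0.70 and 0.51. No value is given for the 5 libraries of F0_ABS-SAL, since correlations were computed only over 6 or more.

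**Figure D4:**
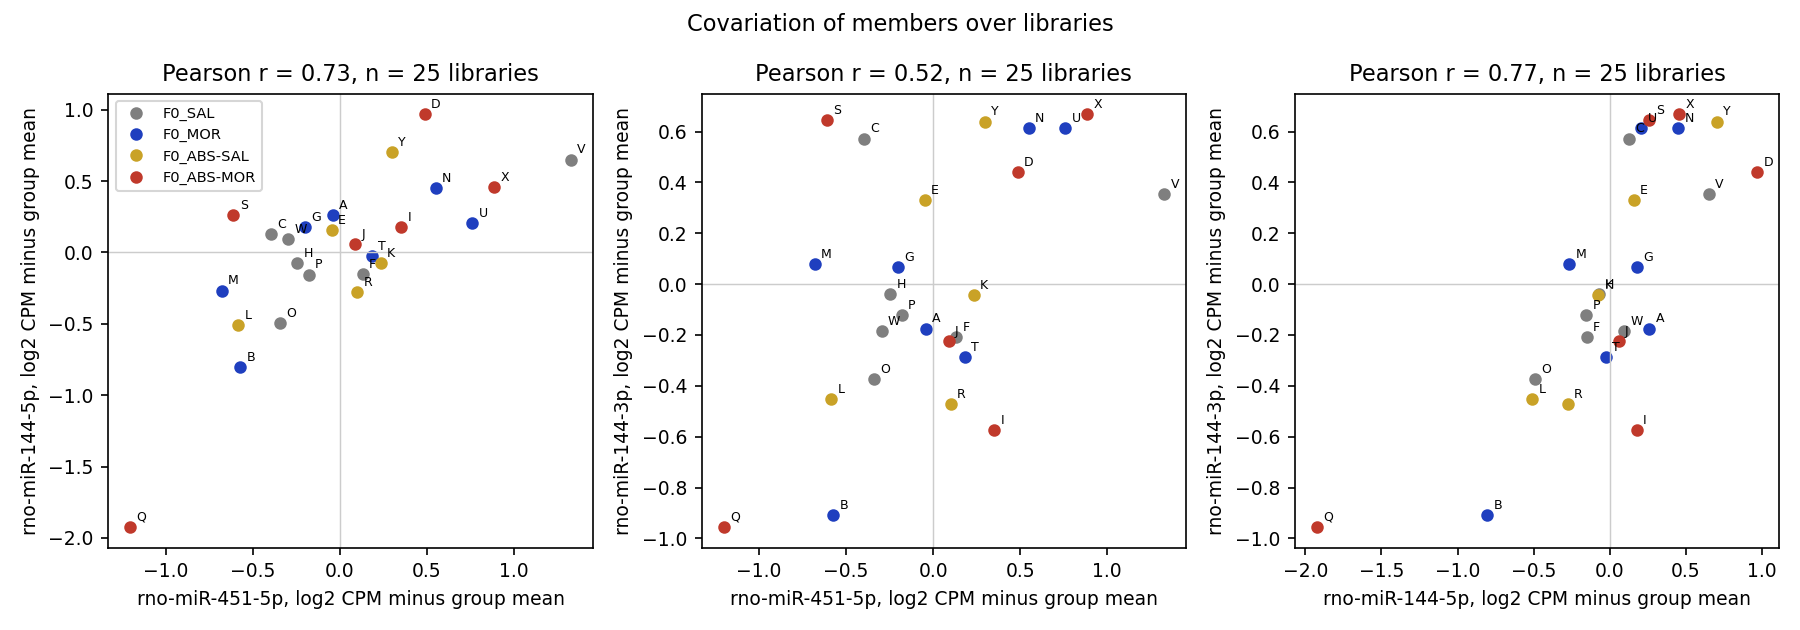
log2 CPM of each pair of members after removing the group mean, 1 point a library, coloured by group and lettered. Library Q lies at the lower left in the 3 panels, and library V at the right in the panels of rno-miR-451-5p.

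Among the 316 other tested miRNAs, the one most like rno-miR-451-5p by group-centred Pearson's r over the 25 libraries was rno-miR-144-5p, and rno-miR-144-3p ranked 7. The 5 non-members between them were rno-miR-362-3p (0.60), rno-miR-31a-3p (0.57), rno-miR-106b-5p (0.55), rno-miR-3585-5p (0.54) and rno-miR-339-5p (0.53). Without Q and V, a setting added after the data were seen, rno-miR-144-5p had 0.56, rno-miR-144-3p 0.36 and these 5 between 0.11 and 0.42. The 5 had been picked with Q and V included, and no new ranking without them is given, so their lower values show no order. These are descriptions, with no test, since they were picked as the highest of many.

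Other cell types were followed by lists of miRNAs. A list of 10 miRNAs that red cells hold in quantity but that many other cells express as well, among them rno-miR-16-5p and the miR-17/92 relatives, was on the lower side after abstinence. Between F0_ABS-MOR and F0_MOR 4 of 10 were called lower and 0 higher, where 10.1% of all miRNAs were called lower, with a median log2 fold change of -0.46, from rno-miR-92a-3p at -1.23 (SE 0.31, adjusted p = 0.00800 by edgeR) to rno-miR-106b-5p at -0.13 (SE 0.27, adjusted p = 0.795). Between F0_ABS-SAL and F0_SAL 3 of 10 were called lower and 0 higher, where 10.7% of all miRNAs were called lower, with a median of -0.32. Their summed level ran from 18621 to 32148 CPM (F0_SAL), 17612 to 38474 CPM (F0_MOR), 12323 to 22409 CPM (F0_ABS-SAL) and 11057 to 21229 CPM (F0_ABS-MOR). The summed level of the 3 members ran from 929 to 2741, 948 to 2372, 655 to 1256 and 308 to 1292 CPM in the same order.

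For other blood cells and for tissues, counts are to be read against the shares of all miRNAs called, 11.0% higher and 10.1% lower between F0_ABS-MOR and F0_MOR and 22.4% higher and 10.7% lower between F0_ABS-SAL and F0_SAL. Of 6 leukocyte miRNAs, 1 was called lower between F0_ABS-MOR and F0_MOR, the lymphocyte miRNA rno-miR-150-5p at -0.65 (adjusted p = 0.0845 by edgeR). In the same comparison 1 was called higher, rno-miR-146a-5p at 0.67 (adjusted p = 0.0261). Between F0_ABS-SAL and F0_SAL, 1 was called higher and 0 lower. It was again rno-miR-146a-5p, at 0.73 (adjusted p = 0.0150 by edgeR), while rno-miR-150-5p had 0.03 (adjusted p = 0.946). These counts are too small to set apart from those shares. The summed level of the 6 was 1153 to 2250 CPM (F0_SAL), 1601 to 2502 CPM (F0_MOR), 1939 to 2698 CPM (F0_ABS-SAL) and 2001 to 3056 CPM (F0_ABS-MOR). Both arms of rno-miR-126a, found in endothelium and platelets, were called higher in F0_ABS-MOR, at 0.88 and 1.02, and in F0_ABS-SAL, at 1.25 and 1.54.

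Of 5 miRNAs of epididymal epithelium, the miR-200 family, 1 was called higher between F0_ABS-MOR and F0_MOR and 3 between F0_ABS-SAL and F0_SAL. Of 4 tested muscle miRNAs, 1 and 3 were called higher in the same order. Of 11 tested sperm and testis miRNAs, 1 and 5 were called lower, with medians of -0.32 and -0.57. In the morphine groups these counts of 1 were near the shares of all miRNAs. The part of these shifts in the members' values was not tested. Within groups, none of 21 correlations of the 3 members with the mean log2 level of each of the 6 lists or with log2 total reads passed adjustment over the 21, with adjusted permutation p of 0.479 or above for Pearson's r and 0.620 or above for Spearman's rho over 25 libraries. With the other miRNAs abundant in red cells, Pearson's r was 0.18 for rno-miR-451-5p, 0.43 for rno-miR-144-5p and 0.28 for rno-miR-144-3p. Without V and Q for rno-miR-451-5p, or Q and B for the miR-144 arms, r was -0.08, -0.19 and -0.09 in that order. Within F0_SAL alone r was -0.26, -0.63 and -0.56. It was 0.13, 0.56 and 0.58 within F0_MOR, and 0.61, 0.80 and 0.40 within F0_ABS-MOR. Joint movement with that list within groups was thus not shown.

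**Figure D5:**
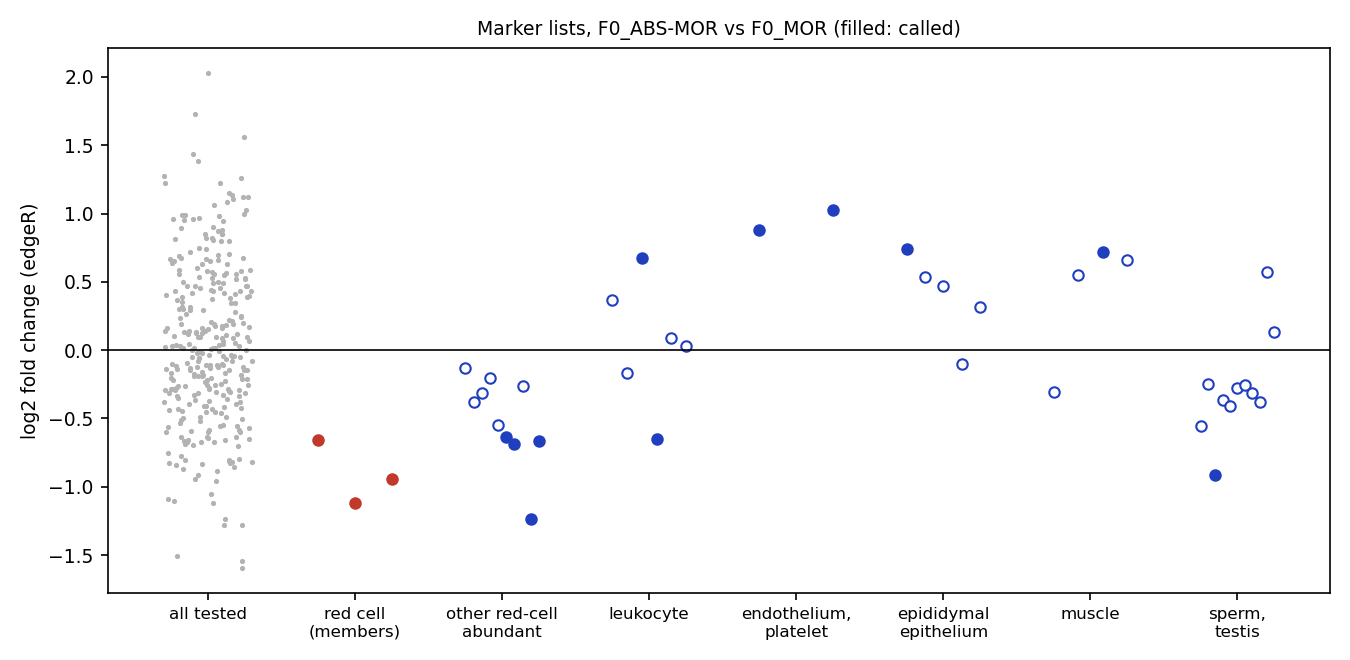
log2 fold change between F0_ABS-MOR and F0_MOR by edgeR for all 317 tested miRNAs (grey), for the 3 members (red) and for the marker lists (blue), filled where called. The 3 members and the 10 other miRNAs abundant in red cells lie below 0, and both miRNAs of the endothelium and platelet list lie above 0.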

How the data were processed

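Small RNA libraries of 25 sperm samples were prepared with the NEBNext small RNA kit. With sRNAbench the authors trimmed adaptors, filtered reads on quality, aligned forward reads to Rnor_6.0 with a minimum of 2 reads and annotated them to miRBase. They deposited raw read counts per mature miRNA and per Ensembl ncRNA, without normalization; the ncRNA counts served here for 1 alternative scaling only. Column names hold a letter and a group label, and no replicate number. Taken in order, the letters match the groups of the listed samples taken in order, a match that was not used here.

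Counts were tested with the quasi-likelihood test of edgeR 4.0.16 (R 4.3.3), with TMM scaling, edgeR's filter on low counts and 1 model of the 4 groups. The SE was derived from the log2 fold change and the F statistic. Log2 CPM used a prior count of 2. Exact tests and permutations were run in Python 3.11.15 with scipy 1.17.1. Alternatives were DESeq2 1.42.0, voom with quality weights in limma 3.58.1, other scalings, filters, thresholds, a depth covariate and each library left out. Scaling to the sperm and testis list and leaving out Q and V together were unplanned and added after the data were seen. The count tests were checked on simulated data. No 2 libraries agreed within sampling noise (lowest chi-square 39.8 for each degree of freedom, 300 pairs). Labels call the libraries biological replicates.

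The 16 exact permutation tests were planned with Benjamini-Hochberg adjustment over the family. After both sets of values had been seen, the unadjusted p-values were printed instead. The change was not neutral: 5 of 16 were under 0.05 unadjusted and 2 of 16 under the planned adjustment. The planned family had also included rno-miR-486.

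Members and lists were chosen with earlier results of these data known. All members were named, with the lists' extremes, rno-miR-23a-3p and the 5 non-members most like rno-miR-451-5p; the same for rno-miR-486 was not analysed here.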

Additional observations from a re-analysis of the deposited data

Results flagged for a closer look

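In 2 of 28 groups of libraries checked, over 7 measures and 4 groups, 1 library lay far from the others, against 1.4 that chance gives at 1 in 20. In F0_SAL, library V had a log2 CPM of 11.24 for rno-miR-451-5p, and the nearest other library had 10.04. In F0_ABS-MOR, library Q had a log2 CPM of 3.90 for rno-miR-144-5p, and the nearest other library had 5.89.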

How the results depend on the processing

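Between F0_ABS-MOR and F0_MOR, 2 or 3 of 3 members were called with any 1 library left out, and 1 of 3 with scaling to the sperm and testis list. rno-miR-144-3p lost its call in 8 of 13 other settings and with G, N, U, I, J or Q left out. Between F0_ABS-SAL and F0_SAL the count with 1 library left out was 0 to 1, and in the other comparisons 0 throughout. Signs turned under scalings that moved all miRNAs. The median log2 fold change of all miRNAs was then 0.25 with total counts and 0.35 with the sperm list between F0_MOR and F0_SAL. Between F0_ABS-SAL and F0_SAL it was 0.39 and 0.74. The members named next lay below those medians, a place that a shift of all miRNAs together leaves nearly unchanged. With total counts, log2 fold changes were 0.13 for rno-miR-144-3p (F0_MOR against F0_SAL), and 2.80e-05 for rno-miR-451-5p and 0.14 for rno-miR-144-3p (F0_ABS-SAL against F0_SAL). With sperm-list scaling they were 0.19 for the first of these, and 0.36, 0.17 and 0.44 for rno-miR-451-5p, rno-miR-144-5p and rno-miR-144-3p in the saline groups. Differences in log2 CPM with total counts were 0.11, 0.10 and 0.13 where TMM gave values below 0, and -0.16 (exact permutation p = 0.497) for rno-miR-144-5p in the saline groups, which without Q and V was -0.42 (exact permutation p = 0.0823). Leaving out Q and V together was added after the data were seen, as sperm-list scaling was, and both are among the 13 settings. Without Q and V, rno-miR-451-5p was at 0.55 and its log2 ratio to rno-miR-23a-3p at 0.032 between F0_MOR and F0_SAL. With 1 library left out, rno-miR-144-3p between those groups ran from -0.20 to 0.076 by edgeR and from -0.19 to 0.067 in log2 CPM, rno-miR-451-5p from 0.20 to 0.55 and the ratio from -0.36 to 0.037. In the saline groups rno-miR-144-5p ran from -0.71 to -0.40, and between F0_ABS-MOR and F0_MOR rno-miR-144-3p ran from -0.84 to -0.50. Correlations within single groups of 6 or 7 libraries did not pass p = 0.05 by exact permutation at r of 0.76, 0.73 and 0.81 (rno-miR-451-5p with rno-miR-144-5p), 0.35, 0.70 and 0.51 (with rno-miR-144-3p), and 0.73 and 0.77 (both arms of miR-144). Without V and Q, rno-miR-451-5p with rno-miR-144-3p had r = 0.36. The cause of these changes was not tested. Depth limits rno-miR-451-3p, with 82 reads in all. No paired analysis was possible because the columns carry no replicate number. Each male was killed at sperm collection and belonged to 1 group, so the design held no pairs from the same male.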
